A study of Homo sapiens with 4 samples.

Results

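Aminoacyl-tRNA synthetases attach each amino acid to its own transfer RNA, the step that lets a codon be read as an amino acid. Human cells keep separate sets of these enzymes, all encoded in the nucleus. A cytosolic set serves the ribosomes of the cytoplasm, and a mitochondrial set, with names that usually end in 2, serves the small protein synthesis system inside mitochondria. Several cytosolic members sit in a multisynthetase complex held together by scaffold proteins. Many cytosolic members are also known targets of ATF4, the transcription factor of the amino acid stress response. The 36 synthetase genes described here form a named set and were found in the table of transcript levels by Ensembl ID. They comprise 20 cytosolic and 16 mitochondrial enzymes among 60617 gene IDs. Every member reached 1 FPKM (sequenced fragments for each kilobase of transcript, adjusted for the size of the library) in at least 2 of 4 libraries, so all 36 entered every comparison.

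Messenger RNA was measured in T24 and 5637, both established lines from human urinary bladder carcinomas, grown in RPMI medium with serum. From either line came 1 untreated library and 1 library of cells kept for 6 h with protodioscin, a steroidal saponin of plants, at 60 µM for T24 and 70 µM for 5637. These doses are in µM in the sample titles, while the protocol text writes them in mM. No vehicle is named for the untreated cells, no group had a replicate, and the lines received different doses, so dose and line cannot be told apart in the responses. The sums of FPKM ran from 322821 to 348577 per library, and synthetases held 0.334% of it in untreated and 0.331% in treated T24, against 0.287% and 0.283% in 5637. RNAs encoded in mitochondria made up 4.50% and 3.74% in T24 against 9.84% and 11.9% in 5637. Of 5 epithelial markers, EPCAM, KRT8, KRT18 and KRT19 were above 1 FPKM in each library. CDH1 was at 0.016 FPKM in untreated and 0 in treated T24 and at 69.6 and 72.3 FPKM in 5637. All 5 were higher in 5637. EPCAM was at 108 and 106 FPKM there against 2.085 and 2.35 in T24, and KRT19 at 1388 and 1125 against 85.7 and 54.2. Of the mesenchymal markers, VIM was higher in 5637 (304 and 267 FPKM against 67.95 and 61.4), and CDH2 and ZEB1 were higher in T24. The basal urothelial markers summed to 0.404 and 0.233 FPKM in T24 and to 362.5 and 305 FPKM in 5637. Of 4 leukocyte markers only CD68 reached 1 FPKM, with list sums of 1.60 to 10.5 FPKM.

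Known control elements of synthetase genes were looked for in the promoters, from 250 bases before to 50 bases after the start of transcription (RefSeq, GRCh38.p14). A window was at hand for 30 of the 36 members, 16 cytosolic and 14 mitochondrial. The 5 motifs searched were chosen with the members' values known. The C/EBP-ATF response element TTGCATCA, the sequence through which ATF4 acts on amino acid response genes, was present on either strand in 6 of 16 cytosolic and 0 of 14 mitochondrial windows. Of 35116 RefSeq windows 0.866% hold it, and among 9837 genes tested here with a window 0.712% do. The 6 elements are shown on the strand of the gene with the element in capitals, because all 6 genes are cytosolic synthetases whose levels are followed below. In NARS1 the element lies on the opposite strand and so reads as its reverse complement.
AARS1: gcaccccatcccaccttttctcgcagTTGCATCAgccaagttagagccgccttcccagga
CARS1: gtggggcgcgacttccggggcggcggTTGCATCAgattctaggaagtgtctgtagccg
IARS1: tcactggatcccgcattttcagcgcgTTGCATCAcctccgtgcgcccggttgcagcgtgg
MARS1: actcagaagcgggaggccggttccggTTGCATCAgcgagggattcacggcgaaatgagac
NARS1: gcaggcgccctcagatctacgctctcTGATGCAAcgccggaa
TARS1: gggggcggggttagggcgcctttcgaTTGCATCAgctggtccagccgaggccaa

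The stretch of AARS1 lies at chr16:70289660-70289719 on the minus strand, and that of CARS1 at chr11:3057394-3057451 on the minus strand. IARS1 is at chr9:92293677-92293736 (minus), MARS1 at chr12:57488038-57488097 (plus), NARS1 at chr18:57621807-57621848 (minus) and TARS1 at chr5:33440941-33440994 (plus). Counting the first transcribed base as 1, the element runs from -187 to -180 in AARS1. In the other 5 genes it lies close to the start, from -13 to -6 in IARS1 and from 15 to 22 in NARS1 at the far ends. Of 17 genes of the amino acid stress response list with a window, 1 (CHAC1) holds the same letters in it.

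WARS1, the tryptophan enzyme, is known to be induced by interferon. Of the windows of its starts, 1 held matches to both interferon motifs searched, GAAANNGAA (the core of the interferon-stimulated response element, ISRE) and TTCNNNGAA (the gamma-activated site, GAS). Both are shown because WARS1 was among the members that differed most between the lines.
WARS1 ISRE core: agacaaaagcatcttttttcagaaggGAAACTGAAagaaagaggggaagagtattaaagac
WARS1 GAS: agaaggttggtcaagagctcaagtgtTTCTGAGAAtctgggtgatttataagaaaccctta
The stretches are at chr14:100375368-100375428 and chr14:100375455-100375515 on the minus strand, and the matches run from -55 to -47 and from -142 to -134. ISRE cores are common, at 8.11% of all windows and 8.78% of tested genes with a window, and were present in 4 of 30 members. GAS letters were in 7.66% of all windows, in 8.47% of tested genes with a window and in 5 of 30 members.

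The ETS motif CCGGAAG, frequent in promoters of housekeeping genes, was in 16 of 30 members, 9 cytosolic and 7 mitochondrial, against 23.5% of tested genes with a window. The remaining motif searched, the NRF1 core CGCATGCG, was in 1 of 30 members (MARS2), against 4.64% of tested genes with a window. HARS1 and HARS2, the cytosolic and mitochondrial histidine enzymes, start back to back on chromosome 5 and share their promoter. The 86 bases between their starts (chr5:140691370-140691455, plus strand, the direction of HARS2) hold 2 ETS matches, in capitals.
HARS1 and HARS2: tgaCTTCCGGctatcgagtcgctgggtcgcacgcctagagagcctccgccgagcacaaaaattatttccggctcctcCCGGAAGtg
Of this pair, HARS1 was at 41.3, 44.5, 46.8 and 43.9 FPKM in untreated T24, treated T24, untreated 5637 and treated 5637. HARS2 was at 12.8, 12.8, 18.3 and 19.3 FPKM in the same order. HARS2 was thus higher in both 5637 libraries while HARS1 overlapped between the lines. The gene models of HARS1 and HARS2 overlap in exons on opposite strands, and HARS2 shares exon sequence with ZMAT2 (28.9 to 33.3 FPKM) on its own strand.

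Cytosolic synthetase transcripts were several times more abundant than mitochondrial ones in every library. The median over the 20 cytosolic members was 46.1 FPKM in untreated and 44.9 FPKM in treated T24, against 40.3 and 40.2 FPKM in 5637. The median over the 16 mitochondrial members was 8.57 and 8.70 FPKM in T24 and 8.41 and 8.65 FPKM in 5637. The ratio of the medians was thus 5.38 and 5.16 in T24 and 4.79 and 4.64 in 5637. Genes at 1 FPKM or more had a median of 8.88 to 9.67 FPKM, close to the mitochondrial enzymes and far under the cytosolic ones. Between 15 and 18 of the 20 cytosolic members lay above IARS2, the highest mitochondrial member in each library. FPKM is per length, so these levels may be set side by side between genes.

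**Figure D1:**
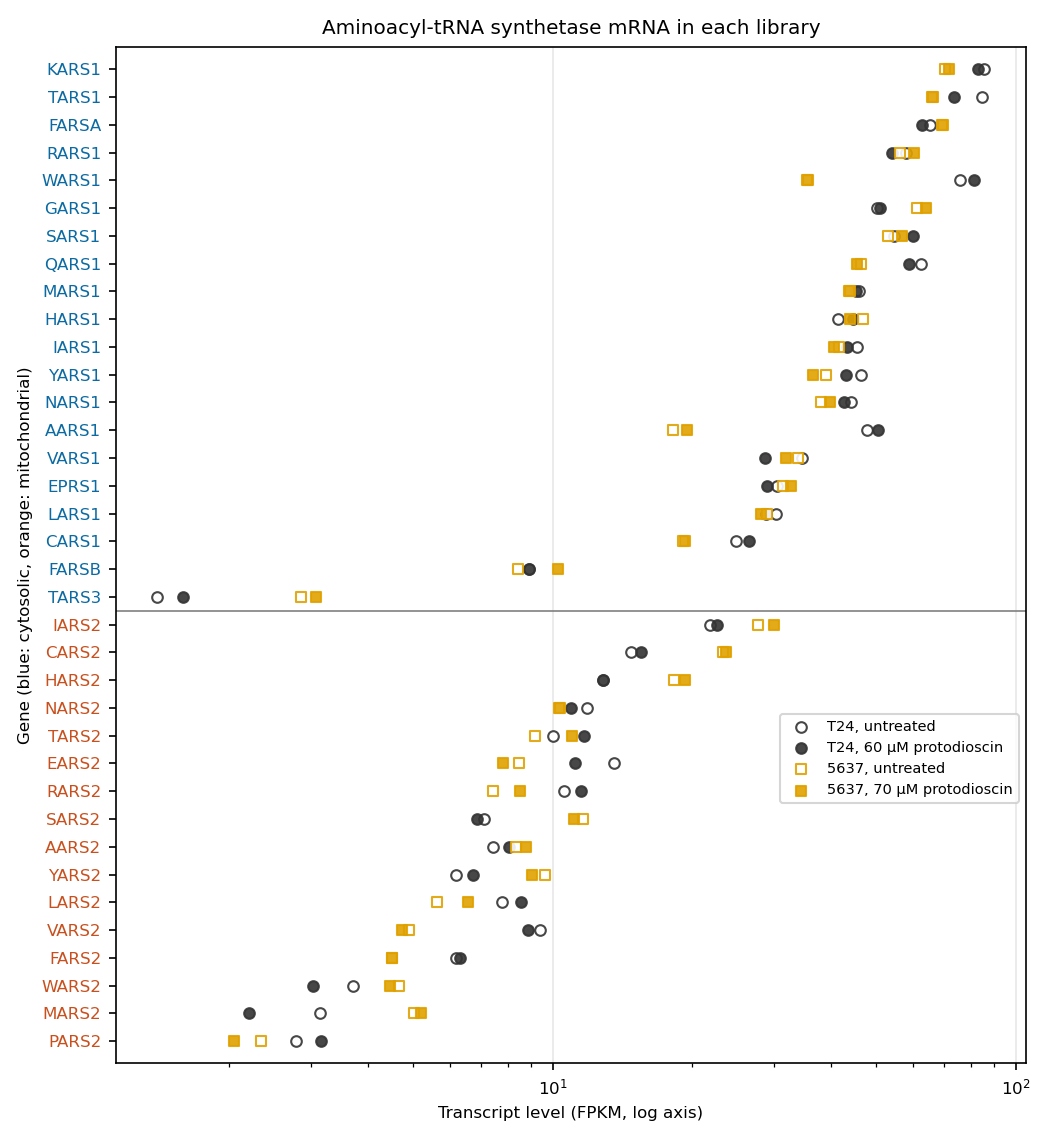
FPKM of the 36 synthetase genes on a log axis, 1 point per library (circles T24, squares 5637, open untreated, filled protodioscin), ordered by mean within the cytosolic (upper) and mitochondrial (lower) class. The cytosolic class lies to the right, with TARS3, FARSB and CARS1 as its lowest members, and the open and filled points of a line lie close together.

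KARS1, the lysine enzyme (chromosome 16, 75627474 to 75648643 on GRCh38), was the most abundant member in each library, at 85.7, 82.9, 70.3 and 71.8 FPKM in untreated T24, treated T24, untreated 5637 and treated 5637. This gene makes both the cytosolic and the mitochondrial lysine enzyme through alternative splicing. Its lead was small and was not tested. The next member was TARS1 in untreated T24 (84.6 FPKM), WARS1 in treated T24 (81.4 FPKM) and FARSA in both 5637 libraries (69.5 and 69.6 FPKM). TARS1, for threonine, had the next highest mean, at 84.6, 73.7, 65.9 and 66.3 FPKM, and FARSA, the alpha subunit of the cytosolic phenylalanine enzyme, was at 65.2, 62.7, 69.5 and 69.6 FPKM. FARSA lay above TARS1 in both 5637 libraries, and WARS1 lay above FARSA in both T24 libraries, so the order differs by line. The next 4 genes, RARS1, WARS1, GARS1 and SARS1, had means within 56.1 to 57.1 FPKM, and their ranges over the libraries overlapped. Their order is therefore not resolved.

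At the low end of the cytosolic class stood TARS3, a second cytosolic threonine enzyme, at 1.40, 1.59, 2.87 and 3.09 FPKM. FARSB was at 8.88, 8.90, 8.43 and 10.3 FPKM, although it encodes the beta subunit that pairs with FARSA in equal number. FARSA transcripts were thus more abundant than those of their partner subunit in each library. CARS1, for cysteine, had the third lowest mean, at 24.9, 26.6, 19.1 and 19.3 FPKM, although AARS1 lay below it in untreated 5637 (18.2 FPKM).

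Of the mitochondrial class, IARS2 for isoleucine was highest, at 21.9, 22.7, 27.8 and 30.1 FPKM, followed by CARS2 for cysteine at 14.8, 15.5, 23.4 and 23.7 FPKM and, by mean, HARS2. All 3 were higher in both 5637 libraries than in both T24 libraries. The lowest means were those of PARS2 for proline at 2.79, 3.17, 2.34 and 2.05 FPKM, MARS2 for methionine at 3.14, 2.21, 5.01 and 5.20 FPKM, and WARS2 for tryptophan at 3.70, 3.04, 4.65 and 4.46 FPKM. The lines separated for WARS2 and MARS2, with 5637 above T24. MARS2 was the lowest of the class in treated T24, whereas in 5637 FARS2 and VARS2 lay below it. WARS2 overlaps the exons of the antisense gene WARS2-AS1 (2.18 to 3.75 FPKM), and the libraries do not mark strand.

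Pairing each mitochondrial enzyme with the cytosolic enzyme for the same amino acid gave 17 pairs. EPRS1 (glutamate and proline) and FARS2 (phenylalanine) were in 2 pairs each. For threonine only TARS1 was paired with TARS2. TARS3, left out of the pairs, lay under TARS2 in each library (1.40, 1.59, 2.87 and 3.09 FPKM against 9.99, 11.7, 9.16 and 11.02). The cytosolic member was more abundant in 17 of 17 pairs in T24 and in 16 of 17 in 5637. Among these pairs the exception was cysteine: CARS1 was 1.68 times CARS2 in untreated and 1.71 times in treated T24, but 0.817 and 0.814 times CARS2 in 5637. The median ratio over pairs was 5.47 and 4.69 in T24 and 4.55 and 4.30 in 5637. The 10 pairs with a lower ratio in untreated 5637 than in untreated T24 all had a lower ratio in treated 5637 as well. The other 7 pairs had a higher ratio in 5637 than in T24, in untreated and in treated cells alike.

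Tryptophan and alanine showed the widest gap between the lines. WARS1 exceeded WARS2 20.5-fold and 26.8-fold in untreated and treated T24, but 7.64-fold and 7.997-fold in 5637. AARS1 exceeded AARS2 6.43-fold and 6.25-fold in T24, but 2.17-fold and 2.22-fold in 5637. Valine went the other way, with VARS1 at 3.69 and 3.25 times VARS2 in T24 and at 6.93 and 6.78 times in 5637. The sets for the same amino acid therefore did not keep a fixed proportion between these lines.

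**Figure D2:**
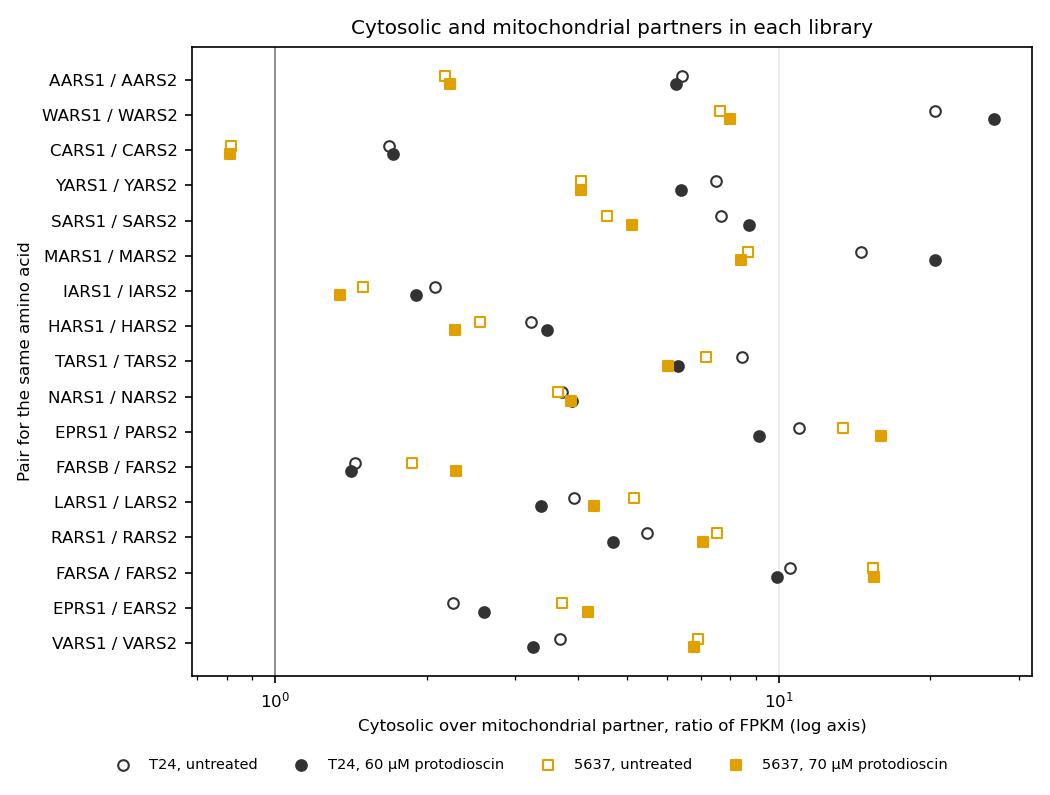
Ratio of FPKM of the cytosolic to the mitochondrial enzyme for the same amino acid, on a log axis, in each of 4 libraries for 17 pairs, ordered by the ratio in untreated 5637 over that in untreated T24 with the lowest on top. Circles (T24) lie right of squares (5637) in the upper pairs and left of them in the lower pairs. Of the 17 pairs shown, only CARS1 over CARS2 in 5637 falls under 1, and TARS3 is in none of them.

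Synthetase transcripts after protodioscin stood close to their untreated level. Differences within a line are treated minus untreated on the log2(FPKM + 1) scale, with 1 library on each side and hence no test. In T24, 19 of the 36 members moved by less than 0.1, and in 5637, 29 did. The largest differences were -0.37 in T24 and 0.26 in 5637. No member reached 2-fold, a size passed by 0.484% of 12193 genes in T24 and 0.388% of 12635 genes in 5637. Past 0.25, 3 members were lower in T24 (MARS2, EARS2 and VARS1) and 0 were higher, where 8.58% and 8.0% of all genes were. In 5637, 1 member (FARSB) was higher past 0.25 and 0 were lower, where 9.31% and 6.4% of all genes were. The members' shares past 0.25 were thus near or under those of all genes.

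Neither class moved far as a whole. In T24, 8 of 20 cytosolic and 9 of 16 mitochondrial members were above 0, with medians of -0.047 and 0.036, while 56.0% of all genes were above 0 with a median of 0.025. In 5637, 14 of 20 cytosolic and 8 of 16 mitochondrial members were above 0, with medians of 0.013 and 0.0093, against 61.5% and a median of 0.043 over all genes. The 5637 medians changed sign with 2 other scalings between libraries, to -0.047 and -0.046 by median ratios and -0.029 and -0.032 as TPM, and the mitochondrial one also with quantile normalization (-0.034). The direction for a class in 5637 is thus set by the scaling. The limma test of treatment over both lines called 0 of 12893 genes (0.0%), so no synthetase changed by that test, and the lowest adjusted p over all genes was 0.0784. At an unadjusted p under 0.05 the same test passed 1227 genes (9.52%), of which 1 was a member, TARS2.

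**Figure D3:**
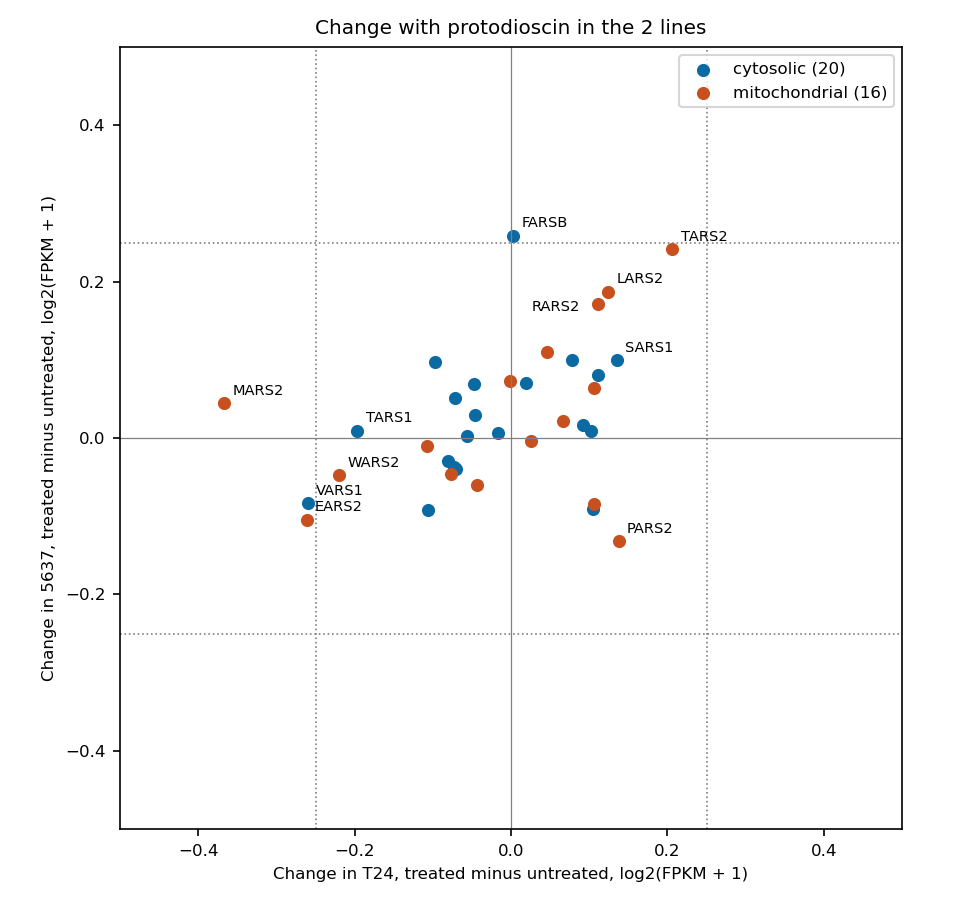
Difference between the treated and untreated library, log2(FPKM + 1), in T24 (x axis) and 5637 (y axis) for 20 cytosolic and 16 mitochondrial synthetase genes, with dotted lines at 0.25 either way. Most points lie near the origin. Of the points higher in both lines TARS2 lies farthest from the origin, and of those lower in both EARS2 and VARS1 do. MARS2 stands at -0.37 in T24 and 0.045 in 5637.

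TARS2, the mitochondrial threonine enzyme (chromosome 1, 150487364 to 150507609), measured 9.99 and 11.7 FPKM in untreated and treated T24 cells, against 9.16 and 11.02 in 5637 cells. Both treated libraries lay above both untreated ones. Its treated to untreated ratio was 1.17 in T24 (95% interval 1.05 to 1.30, counting error only) and 1.20 in 5637 (1.09 to 1.33). The limma coefficient was 0.22 with a standard error of 0.080, an unadjusted p of 0.0311 and an adjusted p of 0.505. TARS2 overlaps the microRNA gene MIR6878, which was listed at 0.0158 FPKM or less.

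LARS2, the mitochondrial leucine enzyme, was at 7.76 and 8.55 FPKM in T24 and 5.64 and 6.56 FPKM in 5637, log2 differences of 0.12 and 0.19. RARS2, for arginine, was at 10.6 and 11.5 FPKM in T24 cells and 7.45 and 8.51 FPKM in 5637 cells, differences of 0.11 and 0.17. Of the cytosolic class, SARS1 for serine was at 54.6 and 60.1 FPKM in T24 cells, against 52.9 and 56.8 in 5637 cells, differences of 0.14 and 0.099. These genes were higher with treatment in each line, by amounts smaller than the gap between the lines for LARS2 and RARS2. TARS3 differed by 0.11 and 0.080 in the same direction. None passed the limma test (adjusted p of 0.57 for SARS1, 0.598 for LARS2, 0.606 for RARS2 and 0.777 for TARS3).

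EARS2, the mitochondrial glutamate enzyme (chromosome 16, 23522014 to 23557731), measured 13.6 and 11.2 FPKM in untreated and treated T24 cells, against 8.47 and 7.81 in 5637 cells. Its ratio was 0.822 in T24 (95% counting interval 0.756 to 0.894) and 0.922 in 5637 (0.837 to 1.02). UBFD1, which overlaps EARS2 in exons on the opposite strand, was at 14.2 and 15.1 FPKM in T24 cells, against 8.38 and 8.59 in 5637 cells. UBFD1 was thus not lower in treated T24, but it was lower in 5637 than in T24, as EARS2 was. VARS1, the cytosolic valine enzyme, was at 34.6 and 28.7 FPKM in T24 cells, against 33.95 and 31.99 in 5637 cells. Its ratio was 0.830 in T24 (0.790 to 0.872) and 0.942 in 5637 (0.901 to 0.986), and both intervals lay under 1. The coefficient over both lines was -0.17 with a standard error of 0.073 and a limma adjusted p of 0.528. YARS1 for tyrosine (-0.11 and -0.092), WARS2 (-0.22 and -0.048) and VARS2 for valine (-0.077 and -0.045) were also lower in both lines. VARS2 shares exon sequence with GTF2H4 on the same strand, which was at 5.55 and 3.002 FPKM in T24.

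The other large differences were seen in 1 line. MARS2 was at 3.14 and 2.21 FPKM in T24, a ratio of 0.704 (0.574 to 0.864), and at 5.01 and 5.20 FPKM in 5637, a ratio of 1.04 (0.905 to 1.19). TARS1 was at 84.6 and 73.7 FPKM in T24, a ratio of 0.871 (0.836 to 0.908), and at 65.9 and 66.3 FPKM in 5637, a ratio of 1.01 (0.966 to 1.05). FARSB was at 8.88 and 8.90 FPKM in T24, where the interval of its ratio was 0.901 to 1.11. In 5637 it was at 8.43 and 10.3 FPKM, a ratio of 1.22 (1.11 to 1.34). Whether these responses differ between the lines was not tested, since each line has 1 library per treatment. PARS2 was 0.14 higher in T24 and 0.13 lower in 5637, with both counting intervals including 1. IARS2 differed by 0.046 and 0.11, HARS1 by 0.11 and -0.091 and YARS2 by 0.11 and -0.084. In all, 13 members were higher in both lines, 10 were lower in both and 13 moved in opposite directions. With median-ratio scaling these counts were 9, 16 and 11, with TPM scaling 11, 14 and 11, and with quantile normalization 9, 12 and 15, so they depend on the scaling. The counting interval of the ratio left out 1 for 16 members in T24 and 11 in 5637, and it holds no error between cultures. The same share over all genes was not computed, so these counts cannot be read as a response of the members.

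Members of the multisynthetase complex were each slightly lower in treated T24. All 7 synthetases of the list (EPRS1, IARS1, KARS1, LARS1, MARS1, QARS1 and RARS1) and the 3 scaffold genes AIMP1, AIMP2 and EEF1E1 were below 0, from -0.12 to -0.017 with a median of -0.077. Of all genes, 56.0% were above 0 in T24 and 61.5% in 5637. In T24, 8 of 13 cytosolic synthetases outside the complex were above 0. The counting intervals of the T24 ratio included 1 for KARS1 (0.926 to 1.01) and MARS1 (0.94 to 1.04). They lay under 1 for EPRS1, IARS1, LARS1, QARS1 and RARS1. These intervals were computed on the deposited FPKM only. With median-ratio scaling, TPM scaling and quantile normalization all 10 genes were again below 0 in T24. The other pseudocounts and filters, and leaving out genes that share exons (7 of 7 below 0), cannot change a sign. All settings use the same treated and untreated library. The scaffold AIMP1 was at 18.0 and 16.5 FPKM in T24 cells, against 16.2 and 18.4 in 5637 cells. RARS1, for arginine, was at 58.0 and 54.1 FPKM in T24 cells, against 56.2 and 60.2 in 5637 cells. In 5637, 7 of the 10 were above 0 with a median of 0.030, but 2 of 10 were with median-ratio scaling. No member of the complex was past 0.25 in either line or passed the limma test of treatment.

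Synthetases known as ATF4 targets were set beside other genes of the amino acid stress response. Of the 13 listed synthetases, 5 were above 0 in T24 (median -0.047) and 9 in 5637 (median 0.0095), and 8 were within 0.1 of no change in T24 and 13 in 5637. Past 0.1 in T24 were VARS1 (-0.26), TARS1 (-0.20), YARS1 (-0.11), SARS1 (0.14) and WARS1 (0.10). Of the 6 genes with a C/EBP-ATF element in the windows shown above, 2 were above 0 in T24 (median -0.032) and 5 in 5637 (median 0.013; 2 with median-ratio or TPM scaling). Of 18 other genes of the amino acid stress response, 14 were above 0 in T24 with a median of 0.13, and 13 in 5637 with a median of 0.11, where 56.0% and 61.5% of all genes were above 0. ATF4 itself was at 85.4 and 96.7 FPKM in T24 cells, against 77.5 and 87.9 in 5637 cells. ATF3, a further factor of this response, was at 6.81 and 10.0 FPKM in T24 cells, against 1.81 and 3.80 in 5637 cells. ASNS, which makes asparagine, was at 8.12 and 9.07 FPKM in T24 cells, against 5.11 and 8.76 in 5637 cells. Others of the list were higher in treated T24 and lower in treated 5637, among them DDIT4 (0.49 and -0.36), CEBPB (0.33 and -0.27) and SLC7A11 (0.39 and -0.20). Beside these values AARS1 differed by 0.078 and 0.099 and NARS1, the asparagine enzyme, by -0.047 and 0.069. None of the 18 was called by the limma test.

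Mitochondrially encoded mRNAs, which the mitochondrial synthetases serve, moved apart in the lines. In T24, 12 of 13 were below 0 with a median of -0.27, and in 5637, 13 of 13 were above 0 with a median of 0.32. The mitochondrial synthetases had medians of 0.036 and 0.0093 in the same comparisons. None of the 13 passed the limma treatment test, but it averages the lines, so changes in opposite directions cancel and it cannot show them. Of the subunits of the amidotransferase that makes mitochondrial glutaminyl-tRNA, GATC was at 10.9 and 13.1 FPKM in T24 cells, against 15.1 and 17.6 in 5637 cells, GATB at 7.38 and 7.95 FPKM in T24 cells and 6.77 and 6.00 FPKM in 5637 cells, and QRSL1 differed by 0.037 and -0.011. TRNT1, which adds the CCA end to every tRNA, was at 7.16 and 6.18 FPKM in T24 cells, against 5.80 and 6.88 in 5637 cells.

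The lines differed from each other far more than treated from untreated cells. In the limma fit over all 4 libraries, 21 of 36 synthetases differed between 5637 and T24 at an adjusted p under 0.05, a share of 58.3%. Over all 12893 genes tested, 68.9% did, 33.9% higher in 5637 and 35.1% lower, so the members' share was somewhat under the background. Of the 20 cytosolic members, 2 were higher in 5637 and 7 lower. Of the 16 mitochondrial members, 7 were higher and 5 lower. Each of the 21 had the same sign in untreated and in treated cells. The untreated and the treated library of a line stand in for replicates here, so the p-values reflect the spread among these 4 libraries alone. In bulk RNA, fewer cells with a transcript and less of it per cell cannot be told apart.

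**Figure D4:**
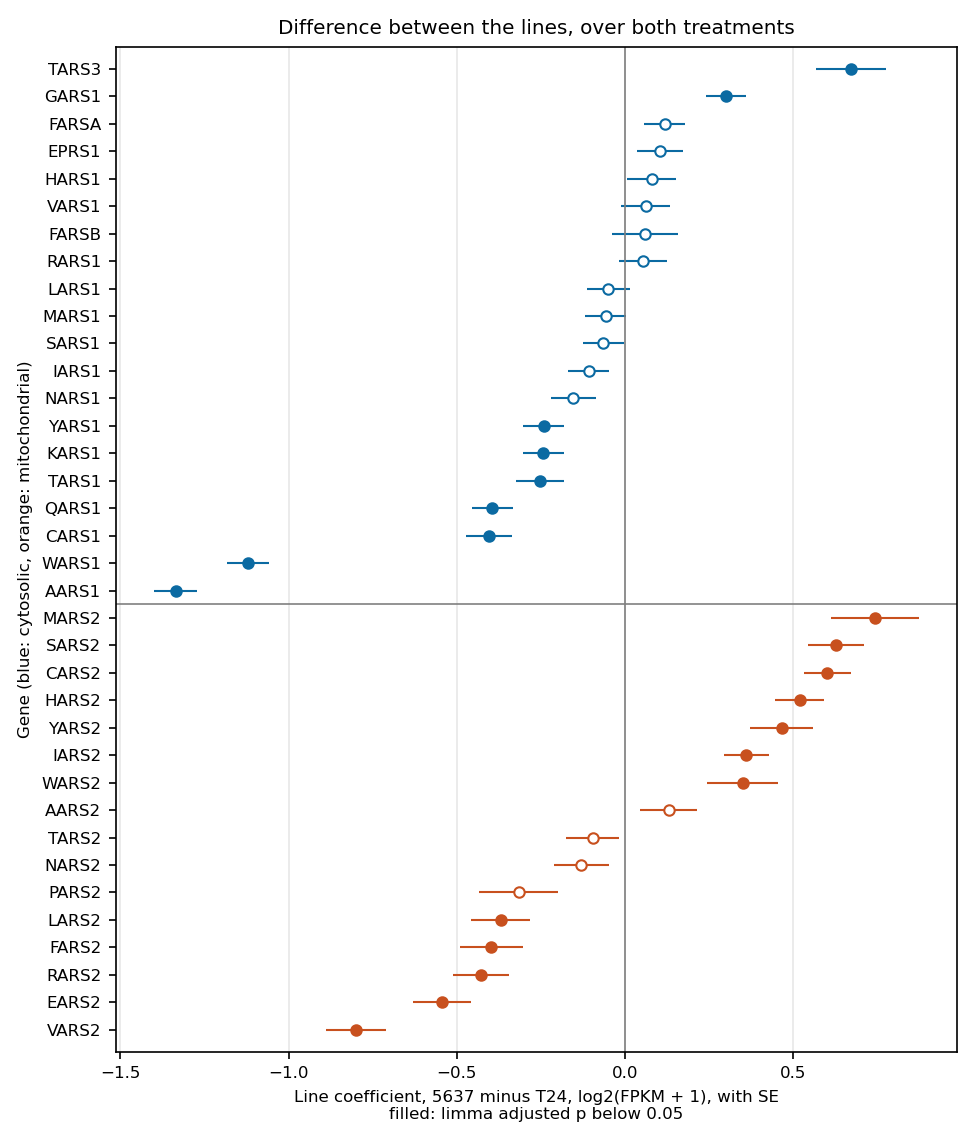
Line coefficient of the limma fit (5637 minus T24, log2(FPKM + 1)) with its standard error for the 36 synthetase genes, cytosolic above and mitochondrial below, filled where the adjusted p was below 0.05. AARS1 (-1.34) and WARS1 (-1.12) stand apart at the left, and 12 of 16 mitochondrial against 9 of 20 cytosolic points are filled.

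AARS1, the cytosolic alanine enzyme (ENSG00000090861, chromosome 16, 70252295 to 70289543), measured 47.7 and 50.4 FPKM in untreated and treated T24 cells, against 18.2 and 19.5 in 5637 cells. The lines did not overlap, and the ratio of untreated 5637 to untreated T24 was 0.381 (95% counting interval 0.360 to 0.403). The line coefficient was -1.34 with a standard error of 0.064 and a limma adjusted p of 1.58e-05. WARS1 (ENSG00000140105, chromosome 14, 100333788 to 100376805) measured 75.7 and 81.4 FPKM in T24 cells, against 35.5 and 35.7 in 5637 cells. Its untreated ratio was 0.468 (0.443 to 0.495), and its coefficient was -1.12 with a standard error of 0.063 and a limma adjusted p of 2.88e-05. WARS1 overlaps the exons of WDR25 on the opposite strand, which was at 4.62 and 5.41 FPKM in T24 and 2.56 and 2.79 FPKM in 5637. On the log2(FPKM + 1) scale these 2 members differed by 1 or more between the untreated lines.

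The other cytosolic members lower in 5637 were CARS1 (-0.40), QARS1 for glutamine (-0.39), TARS1 (-0.25), KARS1 (-0.24) and YARS1 (-0.24). TERF2IP and S100PBP, which overlap KARS1 and YARS1 on the opposite strand, were lower in 5637 too, at 13.6 and 16.2 FPKM against 28.2 and 31.3, and at 4.92 and 4.85 FPKM against 7.43 and 7.25. The libraries do not mark strand, and the part of such neighbours in these differences was not tested. QARS1 was at 62.3 and 58.9 FPKM in T24 cells, against 46.4 and 45.4 in 5637 cells. TARS1 and KARS1 were no longer called when genes under 1 FPKM were kept in the test, with unchanged coefficients and adjusted p-values of 0.102 and 0.051. Of those higher in 5637, GARS1 for glycine was at 50.3 and 51.0 FPKM in T24 cells, against 61.1 and 64.2 in 5637 cells, a coefficient of 0.30; this gene also makes the mitochondrial glycine enzyme. TARS3 at its low level was 2.05 times as high in untreated 5637 as in untreated T24 (1.64 to 2.56), with a coefficient of 0.67. The other 11 cytosolic members did not pass the test, among them MARS1 for methionine (43.7 to 45.8 FPKM over the libraries), EPRS1 (29.02 to 32.7 FPKM) and LARS1 for leucine (28.2 to 30.4 FPKM).

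Of the mitochondrial members, MARS2 (0.74), SARS2 for serine (0.63), CARS2 (0.60), HARS2 (0.52), YARS2 for tyrosine (0.47), IARS2 (0.36) and WARS2 (0.35) were higher in 5637. SARS2 was at 7.12 and 6.87 FPKM in T24 cells, against 11.6 and 11.1 in 5637 cells, and YARS2 at 6.19 and 6.74 FPKM in T24 cells and 9.62 and 9.02 FPKM in 5637 cells. Neither overlapped between the lines. The coefficients of MARS2 and WARS2 missed the adjusted threshold when genes under 1 FPKM were kept. SARS2 overlaps the mitochondrial ribosomal protein gene MRPS12 (17.8 to 19.6 FPKM) on the opposite strand.

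VARS2 (-0.80), EARS2 (-0.54), RARS2 (-0.43), FARS2 (-0.40) and LARS2 (-0.37) were lower in 5637. VARS2 (chromosome 6, 30908242 to 30926459) measured 9.38 and 8.84 FPKM in T24 cells, against 4.90 and 4.72 in 5637 cells, an untreated ratio of 0.522 (0.469 to 0.582) and a limma adjusted p of 4.3e-04. FARS2 was at 6.18 and 6.31 FPKM in T24 cells, against 4.51 and 4.49 in 5637 cells. AARS2 (7.42, 8.06, 8.35 and 8.78 FPKM), NARS2 (11.9, 10.95, 10.4 and 10.3 FPKM), TARS2 and PARS2 were not called. PARS2 had a coefficient of -0.32 and a limma adjusted p of 0.051. Mitochondrially encoded mRNAs were higher in 5637 for 13 of 13 genes with a median of 1.39, whereas the mitochondrial synthetases were called in both directions with a median of 0.017.

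Values of other genes of the amino acid stress response and of genes induced by interferon are given beside AARS1 and WARS1, against 68.9% of all genes called between the lines. Of the 13 ATF4-target synthetases, 1 was called higher in 5637 and 5 lower, with a median of -0.11, and of the 7 other cytosolic members 1 was called higher and 2 lower. Of 18 other genes of the amino acid stress response, 4 were called higher and 8 lower in 5637, a share near that of all genes. TRIB3, a pseudokinase induced by ATF4, was at 29.1 and 28.6 FPKM in T24 and 6.60 and 6.32 FPKM in 5637. PSAT1, of serine synthesis, was at 35.4 and 34.0 FPKM in T24 cells and 10.4 and 11.3 FPKM in 5637 cells, whereas PPP1R15A was higher in 5637 (52.8 and 64.6 FPKM against 34.1 in both T24 libraries). Of 8 interferon genes listed beside WARS1, 7 were called lower in 5637 and 1 higher, with a median of -2.23. IFIT1, an interferon-induced gene, was at 43.8 and 60.1 FPKM in T24 cells, against 0.167 and 0.132 in 5637 cells. IRF1 was the gene that was higher in 5637 (18.5 and 18.7 FPKM against 9.65 and 9.25). The part of these genes in the levels of AARS1 and WARS1 was not tested.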

How the data were processed

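Polyadenylated RNA of 4 libraries (Illumina TruSeq RNA v2, paired-end reads of 150 bases, per the labels' protocols) was quantified by the authors, who deposited FPKM per Ensembl gene. The submitters' processing notes name Trimmomatic, HISAT2, StringTie and GRCh38; tool versions and annotation: not given in the sources used here. Where transcripts overlap, StringTie estimates how reads split, which ties the levels of such genes together. GENCODE 29 (bedtools 2.31.1) placed 6 members in exon overlap with another gene on the same strand and 16 on the opposite strand.

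Values were analysed as log2(FPKM + 1), which understates changes of low genes. Within a line, comparison needed 1 FPKM in either library and had no test. limma 3.58.1 (R 4.3.3) tested treatment and line in 1 model of the 4 libraries holding both terms, with a trended variance prior, for genes reaching 1 FPKM in 2 libraries. It left 1 residual degree of freedom, and calls needed a Benjamini-Hochberg adjusted p below 0.05. The treatment coefficient averages the lines, so it cannot show responses that differ in direction between them. The model was tested on simulated data.

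Between 24.5% and 27.1% of low values were within 0.1 of whole multiples of 1 read, so reads could not be recovered and no count test was run. Intervals on ratios use fragments estimated from FPKM, transcript length and the smallest step of values, and cover counting error only. Since that step was not shown to be 1 read, the fragment numbers and the widths of these intervals are uncertain. The estimated fragments per member ran from 103 for TARS3 to 5649 for IARS1. Whether cultures were independent is not stated. Genes were named as the 5 largest differences in each direction by line and between lines, the 5 largest shared by both lines, the highest and lowest 3 of each class and partners for the same amino acid; other genes come from fixed lists. The members, lists and tests were chosen with earlier results of these data known. Alternatives varied the pseudocount, filter, scaling, model terms and exon-sharing genes.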

Additional observations from a re-analysis of the deposited data

Results flagged for a closer look

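PARS2, the mitochondrial proline enzyme, was higher with treatment in T24 and lower in 5637, at log2 differences of 0.14 and -0.13, so the response in 5637 minus that in T24 was -0.27. It stands out because the lines moved in opposite directions, each by more than 0.1. The difference was not tested, since each line has 1 library per treatment. PARS2 was at 2.05 to 3.17 FPKM, and the counting interval of the ratio was 0.911 to 1.42 in T24 and 0.689 to 1.11 in 5637.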

How the results depend on the processing

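The class medians of treatment were all within 0.1 of 0, and in 5637 their sign depended on the scaling. The count of genes called for treatment went from 0 to 2 with a pseudocount of 0.1 and to 2 without genes that share exons, and 0 of these were synthetases. Synthetases called between the lines ranged from 17 (genes under 1 FPKM kept) to 24 (TPM scaling), around the 21 reported. With TPM scaling, 4 uncalled line differences changed sign, to -0.016 for FARSB, -0.00097 for HARS1, -0.029 for RARS1 and -0.018 for VARS1, and IARS1 (-0.19), NARS1 (-0.24) and PARS2 (-0.46) passed the test. PARS2 was also called with quantile normalization (-0.40), without a treatment term and without genes that share exons (-0.32 in both). MARS2 in T24 went from -0.37 to -0.49 with a pseudocount of 0.1 and to -0.175 with 5, and WARS2 in T24 from -0.22 to -0.11 with 5; at low levels the pseudocount sets the size. The cell line term pairs treated with untreated cells of a line; without it, 9 genes in place of 1227 had an unadjusted p under 0.05 for treatment and 0 were called. With 1 library per group, no difference within a line has an error between cultures, and genes such as TARS3 and PARS2 rest on 103 to 302 and 116 to 194 estimated fragments.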
